A study of Mus musculus with 14 samples.

Results

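Regulatory T cells (Tregs) that carried the inhibitory receptor PD-1 were compared with Tregs that lacked it, both sorted from the same kind of mouse tumour. The comparison used 9 of the 14 libraries of the series, 5 of PD-1+ Tregs and 4 of PD-1- Tregs, chosen by their labels and not by any measured value. The other 5 libraries are CD4 T cells that belong to neither arm. Each result is given over both treatments, with treatment as a covariate, and then within the isotype and within the anti-PD-L1 libraries.

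All mice were labelled as female C57BL/6 of 8 to 12 weeks. Their genotype was GATIR Foxp3Cre-rfp Gata3Cre-yfp, in which red fluorescent protein (RFP) is tied to Foxp3. They carried subcutaneous AE17-OVA tumours, a mouse mesothelioma line with the model antigen ovalbumin. An antibody against PD-L1 (clone MIH5, 200 µg) or an isotype control (clone 2A3) was injected in 300 µl into the peritoneal cavity on day 10. The tumours were taken on day 13 by the sorting protocol, whereas the treatment protocol counts day 13 from the treatment, so the time from injection to harvest is not settled. Cells were sorted on CD4, CD25, RFP and PD-1, and libraries were made by Smart-seq2, which amplifies full-length cDNA and adds no molecular identifiers. PD-1- Tregs had 2 isotype and 2 anti-PD-L1 libraries, and PD-1+ Tregs had 2 and 3. The labels do not say which mice, or pools of mice, a library came from, so a p-value here is set by library-to-library spread, part of which may be technical.

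Tregs are CD4 T cells that depend on the transcription factor Foxp3 and restrain other T cells. PD-1 is induced by T cell receptor signalling and, when bound by its ligand PD-L1, dampens that signalling. Tregs in tumours commonly lose the genes of resting, recirculating T cells and gain those of effector Tregs, among them receptors such as CCR8, 4-1BB and TIGIT.

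Genes behind the sort gates served first as a check of the labels and are no findings. Values are in CPM (counts per 1e+06 counts of the library), and are listed with the isotype libraries before the anti-PD-L1 libraries. Pdcd1, which encodes PD-1, stood at 39.7, 21.6, 45.5 and 46.4 CPM in PD-1- Tregs and at 114, 85.2, 226, 244.7 and 124 CPM in the PD-1+ arm. Every PD-1+ library lay above every PD-1- library (log2 fold change 1.92 ± 0.44 SE, adjusted p = 0.238 by edgeR's quasi-likelihood test). Foxp3 was at 113, 185, 193 and 197 CPM in PD-1- Tregs, against 15.8, 94.4, 31.0, 155.9 and 45.5 in PD-1+ Tregs. The 2 arms overlapped, and 3 PD-1+ libraries lay below 50 CPM (log2 fold change -1.38 ± 0.62, adjusted p = 0.487). Il2ra, which encodes CD25, averaged 306 ± 81.8 CPM (SD, n = 5) in the PD-1+ arm and 502 ± 178 (n = 4) in the PD-1- arm (adjusted p = 0.51, edgeR). Cd4 stood at 19.7, 99.6, 294 and 159.5 CPM in PD-1- Tregs and at 159.9, 177, 313, 182 and 137 in PD-1+ Tregs. Its arms did not overlap within isotype but did over both treatments (log2 fold change 0.60 ± 0.54, adjusted p = 0.950, edgeR). Cd274 and Pdcd1lg2, the genes of the ligands PD-L1 and PD-L2, averaged 35.7 against 69.4 CPM and 50.7 against 20.01 CPM, PD-1+ libraries first, and neither passed. The summed CD3 chains, which mark T cells, ran from 2062 to 2783 CPM in PD-1+ and from 2132 to 2523 in PD-1- libraries.

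Several library measures moved with the PD-1 label. Total counts were 10638848 to 13552040 per library. At least 1 count was found for 9662 to 11312 genes in PD-1+ libraries and for 8027 to 8801 in PD-1- libraries. The 20 macrophage and monocyte markers summed to 1495, 681, 1030 and 1174 CPM in PD-1- Tregs and to 6181, 9369, 5080, 5865 and 6451 CPM in PD-1+ Tregs, which is 6.02-fold. The sum over dendritic cell and class II genes was 8486 to 14610 CPM against 19340 to 47830 CPM (2.76-fold), and CD8 T and NK cell markers to 0 to 77.1 against 78.4 to 152 CPM. For each of these 4 measures the arms did not overlap, and an exact two-sided permutation test within treatment gave 0.0167, the smallest p that the 60 assignments allow, and 0.05 after adjustment over 12 measures, which is not below the threshold of 0.05. Sums of B cell, neutrophil and mast cell, tumour and stroma, and stress genes overlapped between the arms over both treatments and within anti-PD-L1. Within isotype the B cell sum did not overlap, at 283 and 549 CPM in PD-1+ and 95.9 and 101 CPM in PD-1- Tregs. The same held there for the neutrophil and mast cell sum (31.0 and 15.1 against 0 and 0 CPM) and the stress sum (6675 and 8904 against 5667 and 6643 CPM). C1qa and Fcgr1 were at 0 in all 4 PD-1- libraries, each of which lacked 5 or 6 of the 20 macrophage markers, while no PD-1+ library lacked any. The part of these measures in the gene results below was not tested. The libraries labelled PD-1- anti-PD-L1 replicate 2 and PD-1+ anti-PD-L1 replicate 3 held 2966 and 2929 reads of Y-linked genes, against at most 1 in the other 7, although all mice are labelled female. These libraries held 712 and 10 reads of Xist, an RNA of the inactive X chromosome, against 1326 to 7787 in the other 7. Both carry the number 3 in the brackets of their titles.

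**Figure D1:**
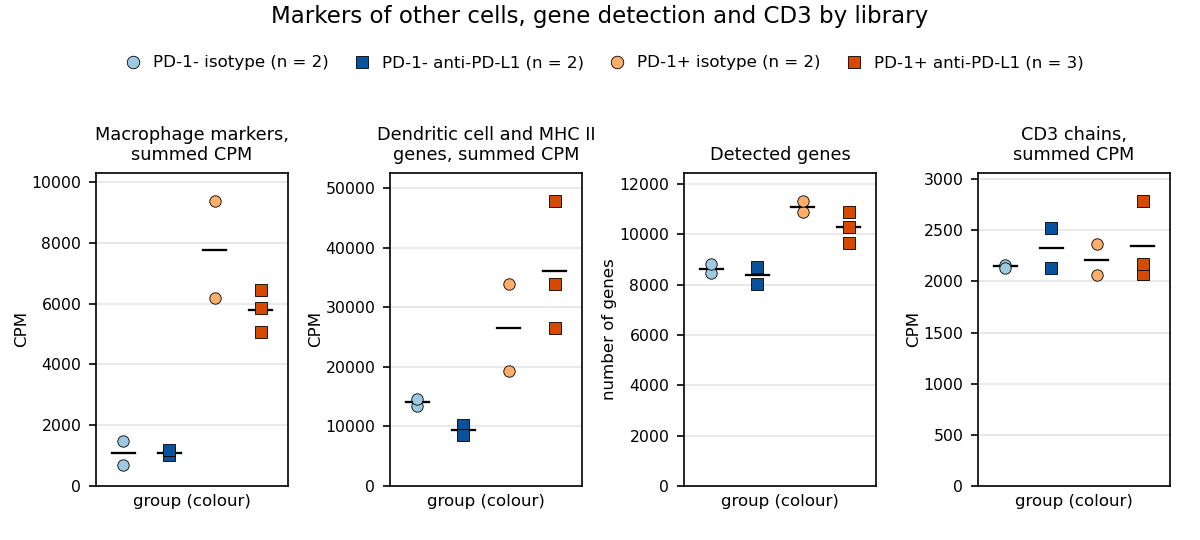
Summed CPM of macrophage markers, and of dendritic cell and MHC class II genes, the number of genes with at least 1 count, and the summed CPM of the CD3 chains. Points are libraries and lines are group means. The first 3 measures do not overlap between PD-1- and PD-1+ Tregs under either treatment, while the CD3 sums overlap.

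Over both treatments 11 genes passed an adjusted p of 0.05, which is 0.0943% of the 11671 genes tested. PD-1+ Tregs had lower Ms4a4b and higher Tigit, and 7 of the 9 genes that rose are known mainly from macrophages and other myeloid cells. Of the 11 genes, 9 rose (0.0771%) and 2 fell (0.0171%). All 11 were free of overlap between the arms (over all genes tested 3.72% were higher and 0.900% lower without overlap). All 11 had the same direction in both treatments, against 52.3% of all genes, and an unadjusted p below 0.05 within each. These traits come from the libraries that made the calls and are no independent support. Of all genes tested 10.1% had an unadjusted p below 0.05 over both treatments, 7.11% within isotype (5.71% higher and 1.41% lower) and 9.58% within anti-PD-L1 (7.69% higher and 1.89% lower). Of the 11 called genes, 4 passed the adjusted threshold within isotype and 3 within anti-PD-L1, and the smallest adjusted p for a difference between the treatments was 0.543. In sorted bulk samples, fewer cells of a type and less RNA per cell cannot be told apart.

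Ms4a4b (chr19:11443558-11463549, mm10), a membrane protein of the MS4A family found on T cells, was at 1750, 1370, 1831 and 1658 CPM in PD-1- Tregs and at 746, 623, 653, 644 and 594 in PD-1+ Tregs. Its level varied little within each arm, and it fell by 1.34 ± 0.16 (adjusted p = 0.0113). The change was -1.19 ± 0.22 within isotype (adjusted p = 0.114), and within anti-PD-L1 Ms4a4b passed on its own, at -1.47 ± 0.19 (adjusted p = 0.0496), a call lost without any 1 of the PD-1+ anti-PD-L1 libraries.

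The lower genes with the next smallest p did not pass. Ablim1, an actin-binding protein, was at -1.80 ± 0.28 (adjusted p = 0.0639), Chd3, a chromatin remodeller, at -1.69 ± 0.29 (0.0754), Cyb5a, cytochrome b5, at -0.90 ± 0.18 (0.162) and Dgka, a diacylglycerol kinase that limits T cell receptor signalling, at -1.61 ± 0.33 (0.164).

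Tigit was the only called gene among the inhibitory receptors. It encodes a receptor for CD155 that Tregs and activated T cells carry. Its levels were 30.5, 51.8, 154 and 209 CPM in PD-1- Tregs and 309, 338, 819, 601 and 778 CPM in PD-1+ Tregs. Within each arm the anti-PD-L1 libraries lay above the isotype libraries, and within each treatment the arms were far apart. Tigit rose by a log2 fold change of 2.44 ± 0.30 (adjusted p = 0.0113), with 2.97 ± 0.37 within isotype (adjusted p = 0.0410) and 2.01 ± 0.34 within anti-PD-L1 (adjusted p = 0.0841). The difference between the treatments had an adjusted p of 0.543.

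Ctsc, the protease that activates granzymes and is shared by lymphocytes and myeloid cells, averaged 1068 ± 190 CPM, against 299 ± 98.1 in PD-1- Tregs (log2 fold change 1.83 ± 0.23, adjusted p = 0.0123). The other 7 genes that rose are myeloid in their best known expression. Lyz2 (chr10:117277541-117282272), lysozyme of macrophages and granulocytes, stood at 238, 136, 201 and 384 CPM in PD-1- Tregs and at 1481, 2195, 1607, 1444 and 1380 in PD-1+ Tregs. It was present in every PD-1- library and rose by 2.76 ± 0.31 (adjusted p = 0.0105), with 3.30 ± 0.40 within isotype and 2.34 ± 0.37 within anti-PD-L1. Cd14, the co-receptor for bacterial lipopolysaccharide, averaged 399 ± 168 against 51.2 ± 17.5 CPM (2.99 ± 0.36, adjusted p = 0.0113).

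Of the remaining genes, 4 had no count in any PD-1- library, so their folds are lower bounds against a floor of 3 counts per library. These bounds cover counting error only and not the spread between libraries. C1qa, a chain of complement C1q, stood at 197, 395, 155, 165 and 122 CPM in PD-1+ Tregs, at least 809.6-fold higher (adjusted p = 0.00304). It was the only one of the 11 genes called when any single library was left out, and it passed within isotype (adjusted p = 0.0365) and within anti-PD-L1 (0.0457). Msr1, a scavenger receptor, was at least 547-fold higher, Clec4a3, a C-type lectin receptor, at least 483-fold, and C3ar1, the receptor for the complement fragment C3a, at least 399-fold. Arg1, the arginine-degrading enzyme arginase 1, had 13848 counts in the PD-1+ and 2 in the PD-1- libraries, a pooled ratio of 5528 (95% counting interval 1530 to 45653). Its PD-1+ level was uneven, at 133, 70.2, 527, 12.2 and 492 CPM. Like the macrophage marker sum, to which C1qa, Lyz2 and Cd14 contribute, all of these genes were higher in every PD-1+ library than in any PD-1- library. Within the PD-1+ arm C1qa, Lyz2, Cd14 and Clec4a3 were, like the sum, highest in isotype replicate 2. Msr1, C3ar1 and Arg1 were highest in other PD-1+ libraries. The part of macrophages in these genes was not tested.

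**Figure D2:**
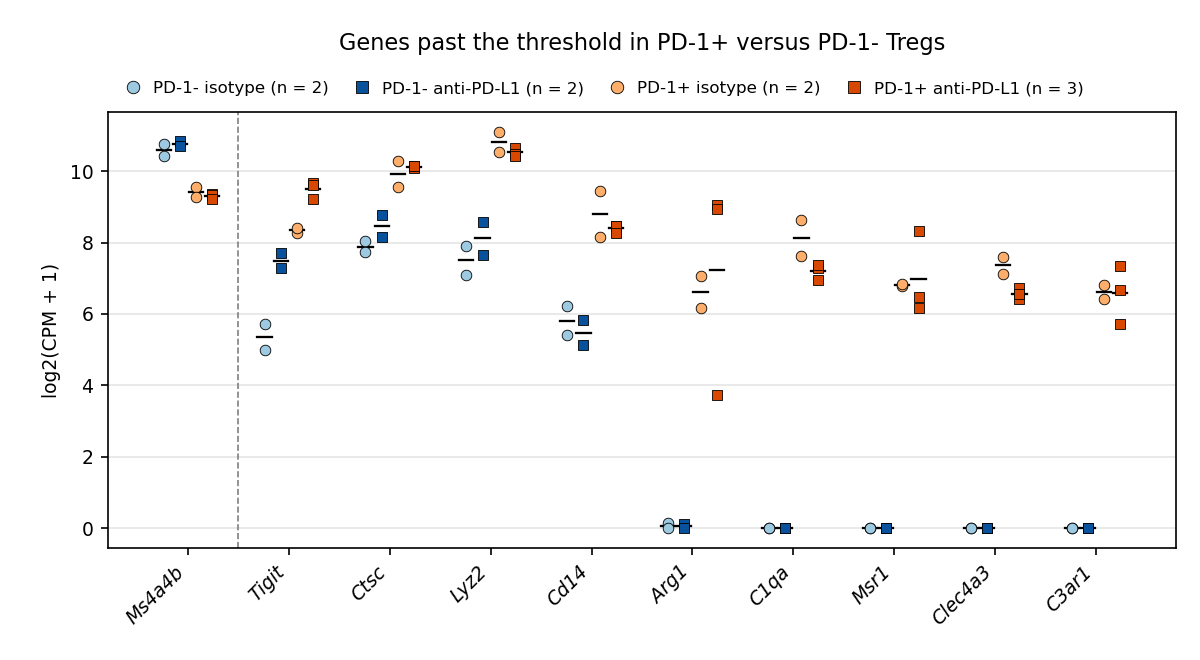
Level of 10 called genes as log2(CPM + 1). Points are libraries, lines are group means, and the dashed line separates Ms4a4b, which fell, from the 9 genes that rose. C1qa, Msr1, Clec4a3 and C3ar1 sit at 0 in all 4 PD-1- libraries.

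These calls rest on few libraries. Without PD-1+ anti-PD-L1 replicate 3 only C1qa was called, without replicate 1 of that group there were 2 calls, and without its replicate 2 there were 5 calls. Leaving out both libraries with Y-linked reads gave 8 calls, 7 of them shared with the 11, and Ms4a4b, Arg1, Cd14 and Msr1 were no longer called. The calls treat the libraries as unpaired, and with a block for the number in brackets there were 0 calls.

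Promoter sequence is shown for a gene that fell, for the inhibitory receptor that rose and for a myeloid gene that rose, so that their upstream DNA can be read beside their levels. RefSeq's table for GRCm38.p6, the same assembly as mm10, held a promoter window for 6 of the 11 called genes (Lyz2, Tigit, Ms4a4b, Ctsc, C3ar1 and Clec4a3). Printed are the bases from 250 to 51 before the listed transcription start, 5′ to 3′ on the strand of the gene, from chr19:11443308-11443507 (plus strand), chr16:43664235-43664434 (minus strand) and chr10:117282323-117282522 (minus strand). The Tigit window lies inside the annotated span of the gene, which has a second start further upstream. Capitals mark matches, on either strand, to a KLF box (CACCC), the core bound by NFAT (GGAAA), a box bound by ETS factors such as PU.1 (GAGGAA), an AP-1 site (TGANTCA) or an NR4A element (AAAGGTCA).
Ms4a4b: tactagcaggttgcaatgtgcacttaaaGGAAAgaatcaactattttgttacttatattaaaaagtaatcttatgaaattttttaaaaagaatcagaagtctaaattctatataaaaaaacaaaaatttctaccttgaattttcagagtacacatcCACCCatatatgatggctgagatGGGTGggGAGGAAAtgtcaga
Tigit: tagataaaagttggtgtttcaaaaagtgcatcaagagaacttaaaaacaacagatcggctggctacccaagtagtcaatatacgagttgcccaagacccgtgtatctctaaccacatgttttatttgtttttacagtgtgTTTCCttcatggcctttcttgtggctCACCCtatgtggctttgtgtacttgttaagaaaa
Lyz2: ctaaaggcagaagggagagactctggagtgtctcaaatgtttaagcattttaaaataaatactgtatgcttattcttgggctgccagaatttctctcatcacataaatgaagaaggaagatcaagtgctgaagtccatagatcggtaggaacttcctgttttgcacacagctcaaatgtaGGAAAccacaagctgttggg

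The 3 windows differed in these matches. Ms4a4b held 2 GGAAA matches, 1 of them overlapping its GAGGAA match, and 2 CACCC matches. Tigit held 1 GGAAA and 1 CACCC match, and Lyz2 held 1 GGAAA match. Over the 11660 windows of the genes tested, at the same length, 48.1% held GGAAA, 48.5% CACCC, 18.3% GAGGAA, 3.7% TGANTCA and 0.84% AAAGGTCA. The 6 called genes have 7 windows, since Clec4a3 has 2. GGAAA was in 6 of the 7 windows, CACCC in 6, GAGGAA in 2, and the AP-1 and NR4A letters in none. A match describes letters only and shows no binding.

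The genes of resting and central T cells were lower in PD-1+ Tregs as a group of values, and no member named here passed the threshold by edgeR. Over all genes tested 61.6% had a positive change and 33.6% a positive one in both treatments, the shares against which the counts of each list are to be read. Of the 15 genes 14 had a negative log2 fold change and 12 a negative one in both treatments, against 18.7% of all genes tested. The list's median log2 fold change was -1.98, against 0.33 over all genes, and was -1.46 within isotype and -1.92 within anti-PD-L1. In 7 of the 15 every PD-1+ library lay below every PD-1- library, a pattern found in 0.900% of all genes. Members named here and in the lists that follow, beyond those the rule gives, were chosen after their values were seen.

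Tcf7, which encodes the transcription factor TCF1 of naive and memory T cells, stood at 372, 523, 550 and 336 CPM in PD-1- Tregs and at 301, 170.1, 115, 130.4 and 106 in those with PD-1. The arms did not overlap (log2 fold change -1.47 ± 0.31, adjusted p = 0.168), and the 3 lowest libraries were the PD-1+ anti-PD-L1 libraries. Lef1, the partner of TCF1, averaged 90.4 CPM with PD-1 and 295 CPM without it (-1.70 ± 0.40, adjusted p = 0.264). S1pr1, the receptor that lets T cells leave tissues, averaged 94.3 against 372 CPM (-1.98 ± 0.43, adjusted p = 0.195). Klf2, the factor that drives S1pr1, averaged 32.9 against 184 CPM (-2.31 ± 0.51, adjusted p = 0.219), and Satb1, a chromatin organiser, 63.1 against 273 CPM (-2.30 ± 0.58, adjusted p = 0.306). Each of these 4 was free of overlap between the arms and negative within both treatments. Igfbp4 lay at 108, 97.9, 72.6 and 44.7 CPM in PD-1- Tregs, at 11.2 and 16.1 in PD-1+ isotype Tregs, and at 0.0855, 0 and 0.0970 in PD-1+ anti-PD-L1 Tregs. Its change was larger within anti-PD-L1, but the difference between treatments did not pass (adjusted p = 0.45).

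Ccr7, Il7r and Foxp1, which also belong to resting T cells, overlapped between the arms. Ccr7 averaged 203 against 348 CPM (-0.68 ± 0.45, adjusted p = 0.769), and Il7r ranged from 7.71 to 402 CPM among the PD-1+ libraries alone. Bcl2, the survival factor, was at 197 and 78.9 CPM in PD-1+ isotype Tregs and at 2.99, 21.2 and 14.4 in PD-1+ anti-PD-L1 Tregs, against 77.9 to 247 in PD-1- Tregs. The isotype arms therefore overlapped for Bcl2 and the anti-PD-L1 arms did not, with an adjusted p of 0.52 for the difference. Bach2, a repressor of effector genes, was the 1 member with a positive fitted change. It was at 32.4 and 165 CPM in PD-1- isotype libraries, at 0 in both PD-1- anti-PD-L1 libraries and at 6.37 to 20.3 CPM in PD-1+ libraries, so its direction turned between the treatments, and its mean over the arms was lower with PD-1 (12.1 against 49.4 CPM).

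Among the 10 inhibitory receptors 8 had a positive change, the same 8 were positive in both treatments, and Tigit alone passed. Their median log2 fold change was 2.24, with 3.28 within isotype and 2.06 within anti-PD-L1, and 7 had an unadjusted p below 0.05 (8.35% of all genes tested were that low and higher). One of the 10 is Pdcd1, used in the sort, which counts among the 8 and the 7 and enters the median. Lag3, a receptor for MHC class II, was at 0.0927 CPM in 1 PD-1- library and at 0 in the other 3, against 44.7, 48.4, 93.7, 27.5 and 0 CPM in PD-1+ Tregs (adjusted p = 0.338). PD-1+ anti-PD-L1 replicate 3 alone overlapped the PD-1- libraries. Havcr2, which encodes TIM-3, stood at 0.0927, 0, 3.31 and 1.26 CPM in PD-1- Tregs, at 0 and 1.73 in PD-1+ isotype Tregs and at 41.0, 77.8 and 50.5 in PD-1+ anti-PD-L1 Tregs (adjusted p = 0.484). Its counts were thus nearly all in the PD-1+ anti-PD-L1 libraries, while the adjusted p for the difference between treatments was 1. Cd244a and Cd160 had no count in any PD-1- library and were found in 4 of 5 PD-1+ libraries each. They are among the 8 and entered the test through their PD-1+ counts alone. Cd96 and Vsir were the 2 receptors with a negative change, at -0.77 ± 0.36 and -0.70 ± 0.52.

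**Figure D3:**
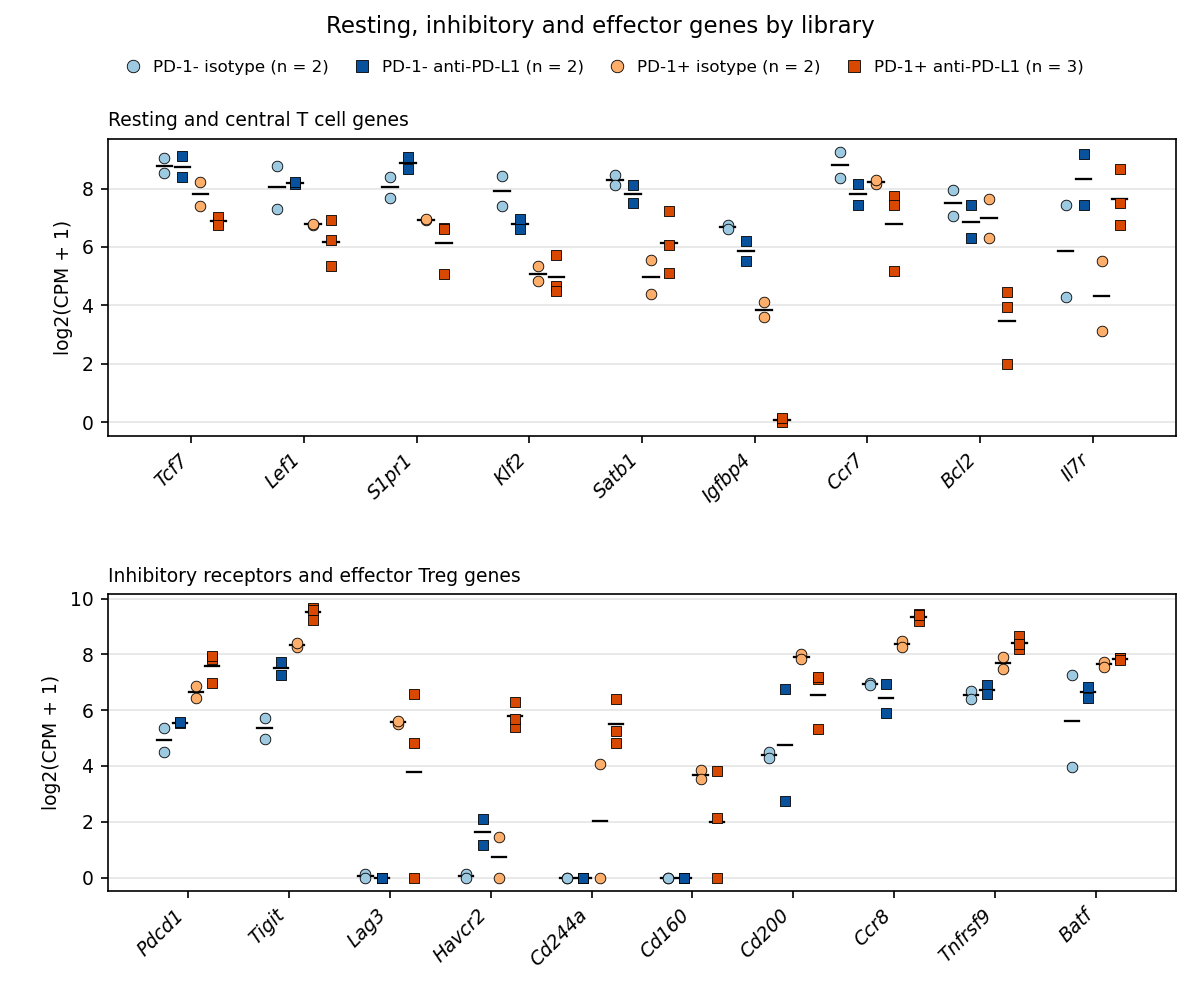
Level of 9 resting and central T cell genes (top) and of 10 inhibitory receptors and effector Treg genes (bottom) as log2(CPM + 1). Points are libraries and lines are group means. Tcf7 to Igfbp4 do not overlap between the arms, and Havcr2 is near 0 outside the PD-1+ anti-PD-L1 libraries.

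Effector Treg genes gave 0 calls among 20 members by edgeR, with 6 at an unadjusted p below 0.05, all higher, against 8.35% of all genes. Of the 20 genes 16 had a positive change and 14 were positive in both treatments, with a median of 0.99 (0.90 within isotype and 1.13 within anti-PD-L1). Pparg, which counts among the 16 and the 14, had no count in any PD-1- library and entered the test through its PD-1+ counts alone. Ccr8, the chemokine receptor of tumour Tregs, stood at 124, 118, 58.7 and 123 CPM in PD-1- Tregs and at 357, 307, 582, 694 and 675 in those with PD-1. The arms were separated, and the anti-PD-L1 libraries were the highest of the PD-1+ arm. Its log2 fold change of 2.20 ± 0.36 had an adjusted p of 0.0640 over both treatments. Within anti-PD-L1 Ccr8 rose by 2.84 ± 0.38 (adjusted p = 0.0496, a call lost under settings given with the within-treatment calls), and within isotype the value was 1.46 ± 0.37 (0.373), with an adjusted p of 0.514 for the difference. Tnfrsf9, which encodes the costimulatory receptor 4-1BB, was at 102, 84.0, 118 and 94.3 against 238, 176, 401, 294 and 329 CPM (1.44 ± 0.29, adjusted p = 0.132). Batf, a factor that effector Tregs need, averaged 217 against 91.9 CPM without overlap (1.22 ± 0.54, adjusted p = 0.485). Icos and Gata3, 2 further effector Treg genes, had changes of -0.03 ± 0.26 and 0.25 ± 0.42.

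The 14 Treg identity genes had a median change of -0.30 and none passed by edgeR, with 3 below an unadjusted p of 0.05, all lower, against 1.77% of all genes. The 14 include the sort genes Foxp3, which is 1 of those 3, and Il2ra. Lrrc32, which displays latent TGF-beta on Tregs, averaged 47.6 ± 27.9 against 190 ± 146 CPM (adjusted p = 0.447). Plagl1 was at 0 in 4 of 5 PD-1+ libraries and at 0, 73.5, 50.7 and 10.9 CPM in PD-1- Tregs. Ikzf2, Ctla4 and Tnfrsf18, which encode Helios, CTLA-4 and GITR, were at 0.25 ± 0.37, -0.26 ± 0.36 and 0.28 ± 0.26 and did not pass. Leaving out PD-1- anti-PD-L1 replicate 2, the library highest in Lrrc32, moved the list's median to 0.05.

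Of 13 Treg suppressive molecules 12 had a positive change, with a median of 1.60 and 0 calls by edgeR (2 at an unadjusted p below 0.05, both higher, against 8.35% of all genes). Among the 12, Itgb8 and Prf1 had no count in any PD-1- library and entered the test through their PD-1+ counts alone. Penk, the precursor of enkephalins, stood at 14.6, 4.41, 34.6 and 178 CPM in PD-1- Tregs and at 395, 341, 334, 313 and 260.3 in those with PD-1. The arms were separated, with a wide spread among the PD-1- libraries (3.04 ± 0.88, adjusted p = 0.397). Il1r2, the decoy receptor for interleukin-1, was at 0.186, 0, 37.8 and 0 against 244.9, 122, 243, 259 and 401 CPM (adjusted p = 0.431). Il10, Ebi3 and Tgfb1 overlapped between the arms. The list was positive in both treatments for 8 of 13 genes, and its median was 2.18 within isotype and 0.47 within anti-PD-L1.

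Genes of T cell receptor signalling were mixed. Of the 16 genes of the receptor complex and its proximal signalling, 12 had a negative change, 10 of them in both treatments, with a median of -0.30 and 0 calls by edgeR (5 at an unadjusted p below 0.05, all lower, against 1.77% of all genes). Lat, the adaptor that joins the receptor to downstream signalling, was at 2036, 1700, 1932 and 1751 CPM in PD-1- Tregs and at 909, 1227, 1274, 984 and 818 in PD-1+ Tregs (-0.83 ± 0.18, adjusted p = 0.195). It did not overlap, with -0.81 within isotype and -0.85 within anti-PD-L1. Cd247, the zeta chain, averaged 176 ± 52.9 against 373 ± 147 CPM (-1.09 ± 0.35, adjusted p = 0.436). Among 18 genes that receptor signalling induces, 8 had a positive change in both treatments and 13 (72.2%) over both together, which is near the 61.6% over all genes, with a median of 0.73 (1.41 within isotype and -0.07 within anti-PD-L1). At an unadjusted p below 0.05, 4 were higher and 2 lower, against 8.35% and 1.77% of all genes, and none passed. Nr4a2 had 2335 counts over the PD-1+ and 6 over the PD-1- libraries (adjusted p = 0.316), while its relative Nr4a1 was at 0.41 ± 0.42. Cd69, an early activation marker that also holds T cells in tissue, averaged 356 ± 179 against 657 ± 243 CPM (-0.85 ± 0.23, adjusted p = 0.338).

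Cytotoxic and T helper 1 genes had a median change of 2.36 over 17 members, of which 15 were positive and 11 positive in both treatments. None passed by edgeR over both treatments, and 3 had an unadjusted p below 0.05, all higher, against 8.35% of all genes. Prf1, which counts among the 15, had no count in any PD-1- library and entered the test through its PD-1+ counts alone. Nkg7, a protein of cytotoxic granules, stood at 24.9, 24.9, 143 and 89.8 CPM in PD-1- Tregs and at 297, 294, 533, 499.8 and 253 in PD-1+ Tregs (2.62 ± 0.43, adjusted p = 0.0639). It rose within isotype (3.57 ± 0.48, adjusted p = 0.0410), and was at 1.88 ± 0.43 within anti-PD-L1 (0.163). Ccl5, a chemokine of effector T cells, averaged 250.5 ± 105 against 56.9 CPM (2.18 ± 0.39, adjusted p = 0.0892). The CD8 T and NK cell marker sum was also higher in every PD-1+ library than in any PD-1- library. It stood at 8.53, 77.1, 76.3 and 0 CPM in PD-1- Tregs and at 78.4, 100.2, 151.7, 100.6 and 101.6 CPM in PD-1+ Tregs. Of its markers, Cd8b1, Ncr1, Klrb1c, Klra8 and Klra7 were at 0 in all PD-1- libraries and Klra8 in all PD-1+ libraries. The part of such cells was not tested.

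Cell cycle genes were mostly higher in value. Among 18 mitosis genes 17 had a positive change, 15 in both treatments, with a median of 1.96, and 4 did not overlap (3.72% of all genes tested were higher without overlap). None passed by edgeR, and 2 of the 18 had an unadjusted p below 0.05, near the 8.35% over all genes. Birc5, which encodes survivin, averaged 215 ± 46.2 against 97.9 ± 31.2 CPM (1.13 ± 0.35, adjusted p = 0.431), and Ccnb2, a mitotic cyclin, 245.2 ± 46.6 against 97.3 ± 59.9 CPM (1.34 ± 0.50, adjusted p = 0.467). Mki67, the usual proliferation marker, was the exception at -0.21 ± 0.56. Of 19 DNA replication genes 17 had a positive change and 14 were positive in both treatments, with a median of 0.79 and no call or unadjusted p below 0.05 by edgeR. The number of detected genes was higher in every PD-1+ library, and its part in these counts was not tested.

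Genes of the interferon-gamma response leaned the other way, with 17 of 23 negative, 12 of them in both treatments, and a median of -0.43. Gbp2, an interferon-induced GTPase, stood at 382, 221, 480 and 404 CPM in PD-1- Tregs and at 64.9, 103, 82.4, 197 and 196 in PD-1+ Tregs (-1.65 ± 0.34, adjusted p = 0.168), without overlap. Socs1, a brake on cytokine signalling, was at 106, 43.3, 435 and 401 against 47.2, 73.4, 60.6, 39.99 and 43.4 CPM. Its arms overlapped under isotype (-0.31 ± 0.55) and were separated under anti-PD-L1 (-3.12 ± 0.51, adjusted p = 0.0786), with an adjusted p of 0.312 for the difference. Ribosomal protein genes were negative for 18 of 22 members, with a median of -0.29. The lists for type I interferon, costimulatory receptors, homing, IL-2 and STAT5, Tfh, Th2 and Th17 genes, glycolysis and oxidative phosphorylation had medians from -0.52 to 0.83, and none held a called gene over both treatments by edgeR.

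Of the 20 macrophage and monocyte markers all 20 had a positive change, 19 in both treatments, and C1qa, Lyz2 and Cd14 passed, with a median of 3.11 (3.33 within isotype and 2.50 within anti-PD-L1). C1qa and Fcgr1, at 0 in all PD-1- libraries, entered the test through their PD-1+ counts alone. Apoe, a lipid carrier abundant in macrophages, stood at 150, 4.68, 11.8 and 4.70 CPM in PD-1- Tregs and at 1437, 1803, 616, 1030 and 1393 in PD-1+ Tregs (adjusted p = 0.0964). The arms were far apart in all libraries. H2-Ab1, an MHC class II chain of antigen-presenting cells, was at 4487, 4708, 2893 and 3207 against 6508, 9737, 8983, 14610 and 10870 CPM (1.41 ± 0.25, adjusted p = 0.0892). It rose within anti-PD-L1 (1.91 ± 0.24, adjusted p = 0.0496, a call that several settings also end), with 0.82 ± 0.25 within isotype. Batf3, Zbtb46 and Xcr1, markers of dendritic cells, were at 0 in all PD-1- libraries, and their means in PD-1+ libraries were 14.2, 22.6 and 14.5 CPM.

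**Figure D4:**
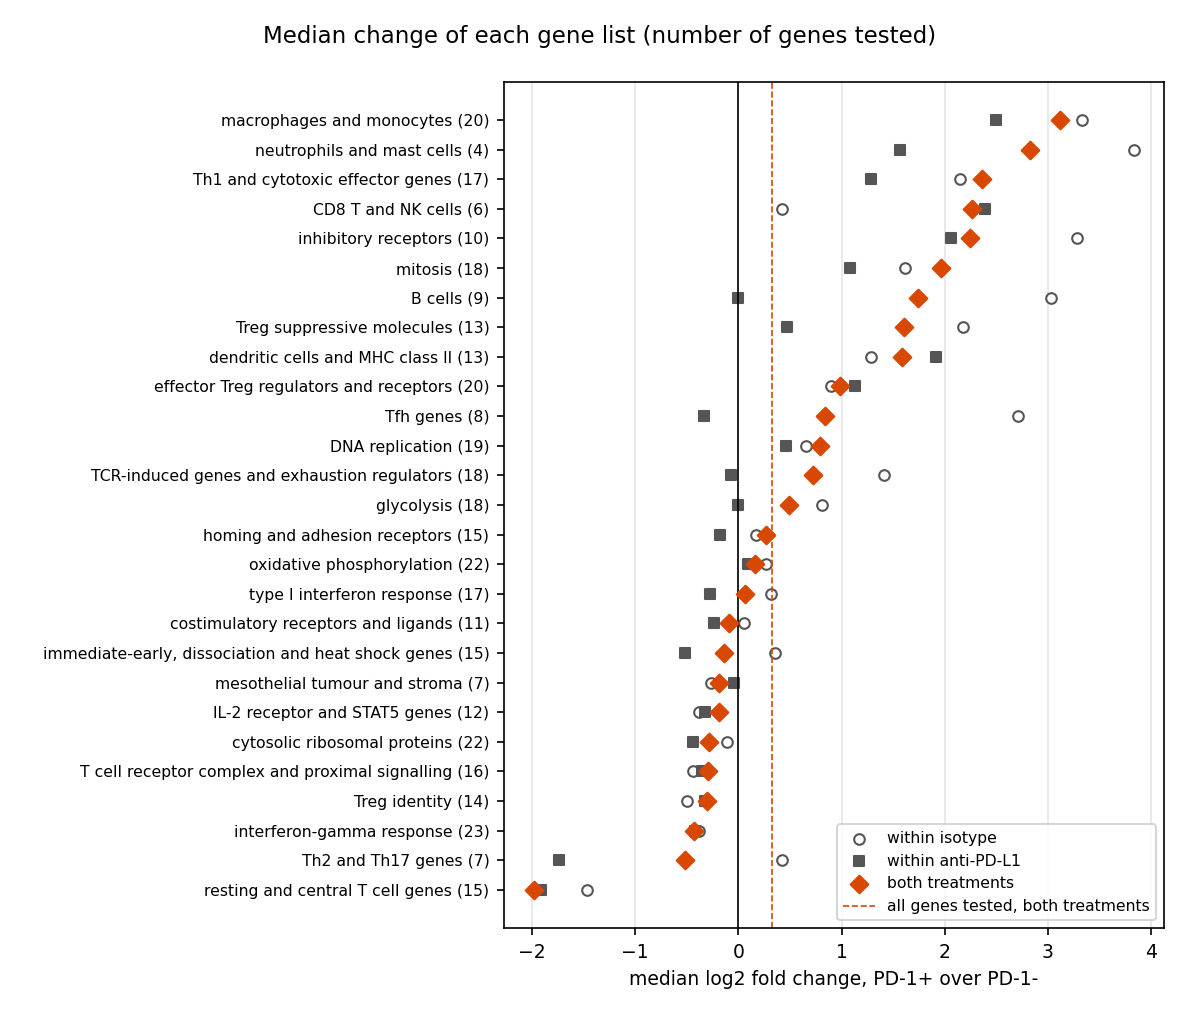
Median log2 fold change of each of the 27 gene lists over both treatments (diamonds), within isotype (open circles) and within anti-PD-L1 (squares), with genes at 0 in an arm set at their bound. On this scale the macrophage list is highest at 3.11 and the resting T cell list lowest at -1.98, and with fitted values in place of bounds the neutrophil and mast cell list (5.13, 4 genes) and the CD8 T and NK cell list (3.57, 6 genes) lie above the macrophage list, and the dashed line marks the median of all genes tested, 0.33.

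Beyond the genes called over both treatments, the treatments gave different calls. Within isotype 11 genes passed (0.0943%), all higher in PD-1+ Tregs, and within anti-PD-L1 14 passed (0.120%), 13 higher (0.111%) and 1 lower (0.00857%). These calls are easily lost. The anti-PD-L1 calls, among them Ccr8, H2-Ab1, Actb and Ms4a4b, fell to 0 with DESeq2 size factors, with a minimum count of 50 and without any 1 of the 3 PD-1+ anti-PD-L1 libraries. The isotype calls fell to 0 with limma-voom, without PD-1+ isotype replicate 2 and without any 1 of the 3 PD-1+ anti-PD-L1 libraries, and to 3 without PD-1+ isotype replicate 1. These contrasts share no library, and both held C1qa and Clec4a3. In each, 6 of the called genes had an arm at 0 throughout. Of the 11 isotype calls 7 had the same sign within anti-PD-L1, and of the 14 anti-PD-L1 calls 9 had the same sign within isotype. The arms were free of overlap in 26.9% (higher) and 12.7% (lower) of all genes within isotype and in 16.7% and 8.89% within anti-PD-L1. Over all 11671 genes 52.3% had the same sign in both, and the changes of the 8586 genes with counts in all 4 groups had Pearson's r = 0.08 and Spearman's rho = 0.07 across genes, which are not independent replicates.

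Genes called in a single treatment included some at 0 in 1 group only. Gzmb, which encodes granzyme B, was at 0 in both PD-1- isotype libraries, at 208 and 272 CPM in PD-1- anti-PD-L1 libraries, at 38.3 and 28.2 in PD-1+ isotype and at 100.1, 174 and 42.3 in PD-1+ anti-PD-L1 libraries. It was thus at least 121-fold higher within isotype (adjusted p = 0.0410), with a log2 fold change of -1.18 ± 0.70 within anti-PD-L1. Phyh and Galm, enzymes of fatty acid and galactose metabolism, were also at 0 in the PD-1- isotype libraries only. Armc1 and Mmadhc were at 0 in the PD-1- anti-PD-L1 libraries only. Cd82, a tetraspanin, was low at 105 and 62.1 CPM in PD-1- isotype libraries and at 514 to 890.4 CPM in all other libraries, and rose within isotype (2.87 ± 0.35, adjusted p = 0.0410).

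No gene passed the test for a difference between the treatments by edgeR (0.00% called), although 1113 genes (9.54%) had an unadjusted p below 0.05, 5.20% with a more positive and 4.34% with a more negative change under anti-PD-L1. The smallest adjusted p, 0.0550, belonged to Actb, the cytoskeletal actin gene. Its level was 64450 and 91420 CPM in PD-1- isotype, 29860 and 25490 in PD-1- anti-PD-L1, 41200 and 34740 in PD-1+ isotype and 67250, 62280 and 79330 in PD-1+ anti-PD-L1 libraries. Actb was therefore at -1.04 ± 0.18 within isotype (adjusted p = 0.111) and rose by 1.33 ± 0.17 within anti-PD-L1 (0.0496, lost as above). Ppm1h, a phosphatase, showed the same order, with 875 and 953, 214 and 228, 281 and 322, and 814, 437 and 701 CPM in the same 4 groups (adjusted p for the difference 0.0647). In both genes the PD-1- isotype and PD-1+ anti-PD-L1 libraries were the high ones.

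**Figure D5:**
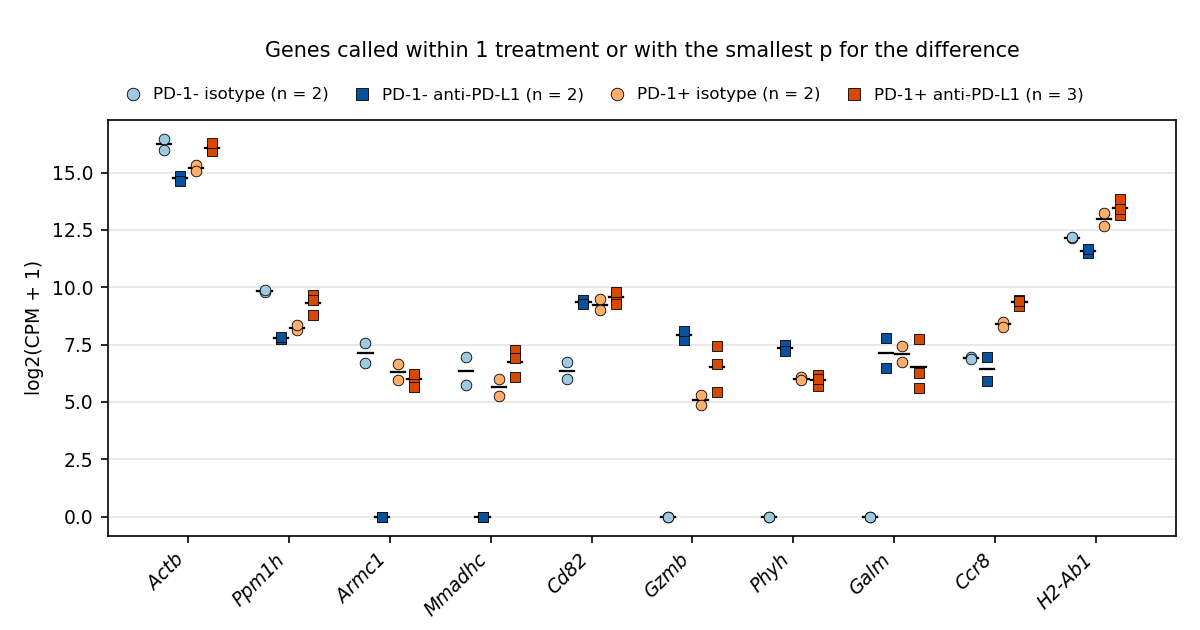
Level of 10 genes called within 1 treatment, or with the smallest p for the difference between treatments, as log2(CPM + 1). Points are libraries and lines are group means. Actb and Ppm1h are high in PD-1- isotype and PD-1+ anti-PD-L1 libraries, and Gzmb, Phyh and Galm are at 0 in PD-1- isotype libraries only.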

How the data were processed

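RNA was sequenced from sorted tumour Tregs. The authors deposited raw read counts and RPKM values for 25124 genes, per the file headers. Listed in the submitters' processing notes are the build mm10 and, with no role, DESeq2, HOMER 3.12, SAMtools and HISAT2 2.0.4. No source used here gives the annotation or strand use, so overlapping or near-identical genes are uncertain. The 9 Treg columns were tested with edgeR 4.0.16 in R 4.3.3 (filterByExpr at a minimum count of 10, TMM, robust quasi-likelihood F-test, treatment as covariate, Benjamini-Hochberg over 11671 genes, threshold 0.05). Within-treatment contrasts and their difference came from 1 fit of 4 group means. edgeR's common biological coefficient of variation was 1.57. Replicate pairs were not duplicates. Each SE was taken as |log2 fold change| divided by √F. CPM are TMM-scaled. Floors and intervals cover counting error only, since reads carry no molecular identifiers. The deposited RPKM values, read as log2(RPKM + 1), served as an alternative (limma 3.58.1), as did DESeq2 1.42.0 on the counts. Scripts were tested on simulated data. A called gene is not reported here, though counts include it.

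The comparison and the 27 gene lists were chosen with earlier results of these data known. Lists are described by counts and medians beside all genes, with no set test. They held 430 distinct genes, of which 4 were not analysed here and 40 were below the filter. Named are the genes of the sort, up to 12 called rises and 12 called falls with a mean of at least 10 CPM and no overlap, filled to 6 by smallest unadjusted p, up to 4 called members per list or the 2 of smallest p, and the 6 of smallest p per within-treatment contrast and for the difference.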

Additional observations from a re-analysis of the deposited data

Results flagged for a closer look

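For 3 library measures the gap between PD-1+ and PD-1- Tregs differed between anti-PD-L1 and isotype at an unadjusted p below 0.05 (exact permutation test over 60 assignments), and none passed after adjustment. The share of counts in the 10 highest genes differed by -2.97 percentage points under isotype and by 4.88 under anti-PD-L1, a gap of 7.85 points (exact p = 0.0167, adjusted p = 0.1 over 12 measures). The share of counts in Actb was -3.69 and 3.59 points apart, a gap of 7.28 points (exact p = 0.0167, adjusted p = 0.1). Actb is 1 of the highest genes, so these measures overlap. The share in Rn45s, a ribosomal RNA precursor, differed by 0.0607 and -0.228 points, a gap of -0.289 points (exact p = 0.0333, adjusted p = 0.133).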

How the results depend on the processing

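The number of calls depended strongly on the test. The 11 calls of PD-1+ versus PD-1- Tregs became 784 with DESeq2, 175 with limma-voom (113 with library quality weights), 57 with limma on log2(RPKM + 1) and 57 on log2(RPKM + 0.1), 28 with no filter on low counts, 575 with all 14 libraries in 1 fit, 20 with no treatment covariate, 33 with 4 group means, and 1 to 20 when a library was left out. All 11 were among the calls of DESeq2, of the 14-library fit and of the fit with no filter. Of the 11, limma-voom kept 9, with or without weights, and limma on either RPKM scale kept 10. With no treatment covariate 10 were kept. DESeq2 size factors and a filter at 50 gave 11 each. Calls within isotype were 964, 0 and 0 (DESeq2, limma-voom, with weights), 22 on log2(RPKM + 0.1), 36 with no filter, 117 with 14 libraries, 0 with the isotype libraries alone and 0 to 82 when a library was left out. Calls within anti-PD-L1 were 1392, 178 and 3, then 33, 65 and 238, 0 with DESeq2 size factors, with a filter at 50, without the libraries with Y-linked reads or with the anti-PD-L1 libraries alone, and 0 to 209 when a library was left out. For the difference between treatments they were 1148, 1 and 1, then 1 on log2(RPKM + 1), 43, 196 and 0 to 200. The cause was not tested.

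Whether replicate numbers pair the libraries is not settled. Deviations of same-numbered libraries correlated at -0.0334 to 0.00679 by title number and at 0.00679 to 0.0334 by the number in brackets. With so few libraries per group, such correlations cannot decide pairing. Both libraries with Y-linked reads carry the number 3 in brackets. With the replicate block there was 1 call by title number and 0 by the number in brackets over both treatments, and 0 within either treatment.

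Fitted list medians, in which genes at 0 in an arm are not set at their bound, moved for B cells (1.74; 3.07 with 14 libraries; 0.243 to 2.93 over left-out libraries), CD8 T and NK cells (3.57; 1.29 to 4.69), effector Treg genes (0.99; 1.01 to 1.47), inhibitory receptors (2.24; 2.14 to 3.14), neutrophils and mast cells (5.13; 3.03 to 10.3) and Treg identity (-0.30; -0.488 to 0.0540). Ignoring treatment, 4 measures passed: CD8 T and NK (2.76), MHC class II (1.43) and macrophage sums (2.61, log2) and detected genes (2114). It turned the sign for the B cell sum (-0.145), tumour and stroma sum (0.00293) and Actb share (0.209). Left-out libraries gave -0.638 to 0.990, -0.425 to 0.401 and -0.598 to 0.493 for these, and -0.0156 to 0.252 for the stress sum. Cd274 turned to 0.16 on log2(RPKM + 0.1), 0.0714 without the Y-linked libraries and -1.24 to 0.0378 over left-out libraries (0.0144 without PD-1+ anti-PD-L1 replicate 3).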
